A study of Homo sapiens with 15 samples.

Results

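Genes of the megakaryocyte, platelet and erythroid lineages were followed in UKE-1 cells by RNA sequencing, through TNF-α stimulation and treatment with 2 drugs. The list held 41 genes, taken by symbol, and a gene was kept when its raw count averaged 10 or more over the 15 libraries. Of the 41 genes, 26 were kept and 15 were not, out of 58735 genes counted in all. UKE-1 is a human JAK2-mutant cell line established from an essential thrombocythaemia that had transformed to acute leukaemia, so each group was a model in 1 established line. The 5 groups had 3 libraries each. They were cells stimulated with TNF-α and then given both drugs, MCL alone or ruxolitinib alone, cells stimulated with TNF-α without a drug, and untreated cells, all labelled WT. RNA was taken 3 h after treatment. MCL is read here as micheliolide, a plant sesquiterpene lactone that the series title names. Ruxolitinib inhibits the kinases JAK1 and JAK2. Neither doses nor the length of stimulation are stated in the sources used here. Nothing shows that libraries of the same group are from separate cultures, so every p-value speaks to the spread among libraries only, which may be technical.

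Megakaryocytes are the bone marrow cells that shed platelets, and erythroid cells mature into haemoglobin-filled red cells. Both arise from a shared progenitor in which GATA and ETS family transcription factors set the lineage. Platelets carry surface receptors that bind von Willebrand factor, collagen and fibrinogen at a wound, and granules that release chemokines and adhesive proteins when the platelet is activated. Signalling from the thrombopoietin and erythropoietin receptors runs through JAK2 and STAT5, and myeloproliferative neoplasms with an activated JAK2 overproduce these lineages. TNF-α is an inflammatory cytokine that is raised in these diseases.

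Library totals ranged from 15476399 to 18035604 counts, and the mitochondrial share of counts from 4.21% to 5.53%. Of 8 haematopoietic and myeloid progenitor markers, 6 averaged at least 10 counts, among them CD34 at 983 ± 25.6 CPM with both drugs and 1287 ± 8.79 CPM in untreated cells (CPM, counts as a share of the scaled library; SD, n = 3 each). The summed level of these markers was 1411 to 1469 CPM with both drugs, 1659 to 1672 CPM with MCL, 1890 to 1916 CPM with ruxolitinib, 1873 to 1924 CPM with TNF-α alone and 1837 to 1877 CPM in untreated cells. The fibroblast markers were near 0 in every library, with a summed level of at most 0.406 CPM over the list of 4. All 4 endothelial markers averaged at least 10 counts, with CDH5 and TIE1 the highest. Of the 4 epithelial markers, EPCAM and CDH1 had 0 counts, but KRT8 and KRT18 were expressed. KRT8 stood at 51.8 ± 3.14 CPM and KRT18 at 98.9 ± 4.39 CPM in untreated cells (SD, n = 3 each). With both drugs they stood at 41.1 ± 1.4 and 62.35 ± 4.09 CPM. Of the T cell, B cell, and monocyte and macrophage lists of 4 markers each, 3, 2 and 2 averaged at least 10 counts.

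The α-, β-, γ-, ε- and ζ-globin genes of the list were barely detected in these cells. None of its 10 globin and globin-handling genes reached the minimum, and GP1BB, HBG2, HBE1 and AHSP had 0 counts in all 15 libraries. A count of 0 among the 250636937 counts allows a level of up to 0.012 CPM, counting 3 reads as the limit and counting error only. The adult α-globin genes HBA1 and HBA2 had 17 and 7 counts over the 15 libraries, and the adult β-globin gene HBB had 3. Fetal HBG1 and embryonic HBZ had 2 counts each. Outside the list, the θ-globin gene HBQ1 was measured at 10.7 ± 1.09 CPM with both drugs, 11.7 ± 0.631 CPM with TNF-α alone and 13.4 ± 0.539 CPM in untreated cells (SD, n = 3 each). HBA1 and HBA2, like HBG1 and HBG2, are near-identical copies that can share reads, so their single counts are uncertain. ALAS2, the erythroid enzyme that starts haem synthesis, had 25 counts. Among red cell membrane genes and enzymes, GYPB had 1 count, EPB42 6, ANK1 32 and CA1 46, whereas GYPC, RHAG, CA2 and SLC4A1 were kept. GP1BB lies wholly inside the annotated read-through transcript SEPT5-GP1BB, which also had 0 counts. HBE1 shares 81.3% of its exon bases with AC104389.4 on the same strand. HBG2 shares 49.8% with AC104389.5 and 34.3% with AC104389.4. The counting of reads shared by overlapping genes is not stated. For these genes the limit given for a count of 0 does not cover shared reads that may have been left uncounted.

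The δ-globin gene HBD was just short of the minimum, with a mean of 9.73 counts and 1 to 26 counts per library, while SLC4A1, the red cell anion exchanger, was the lowest gene above it with a mean of 26.1. HBD had 0.521, 0.873 and 1.45 CPM with both drugs and 0.132, 0.12 and 0.807 CPM with TNF-α alone. The ranges of these groups overlapped.

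The kept genes were present at widely spread levels. Per length, as RPKM (CPM divided by exon length in kilobases), untreated cells held 332 ± 11.4 RPKM of MMRN1 (multimerin 1, an α-granule carrier of coagulation factor V) and 329 ± 5.1 RPKM of RHAG (the Rh-associated glycoprotein of the red cell membrane), whose ranges overlapped (SD, n = 3). Both stood at the 99.5th percentile of the 16146 tested genes, whose median was 3.9 RPKM. ITGA2B, the integrin chain of the platelet fibrinogen receptor, followed at 108 ± 1.32 RPKM, then PPBP at 87.6 ± 4.33, GP9 at 80.1 ± 2.14 and PLEK at 67.7 ± 0.729 RPKM. RAB27B at 52.7 ± 1.26 and GP1BA at 52.2 ± 2.37 RPKM overlapped. SELP, NBEAL2, FLI1 and NFE2 lay between 47.8 and 26.9 RPKM. PF4, CA2, MEIS1 and GYPC lay between 20.4 and 16.8 RPKM, and neighbours among these 4 overlapped. TREML1, GP6, ZFPM1, VWF and THBS1 lay between 10.4 and 3.15 RPKM. F13A1, ITGB3, TUBB1, SLC4A1 and CD36 were the lowest, between 1.26 and 0.233 RPKM. The fibrinogen receptor chains differed widely in level, with ITGB3 at 1.12 ± 0.104 RPKM beside ITGA2B.

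**Figure D1:**
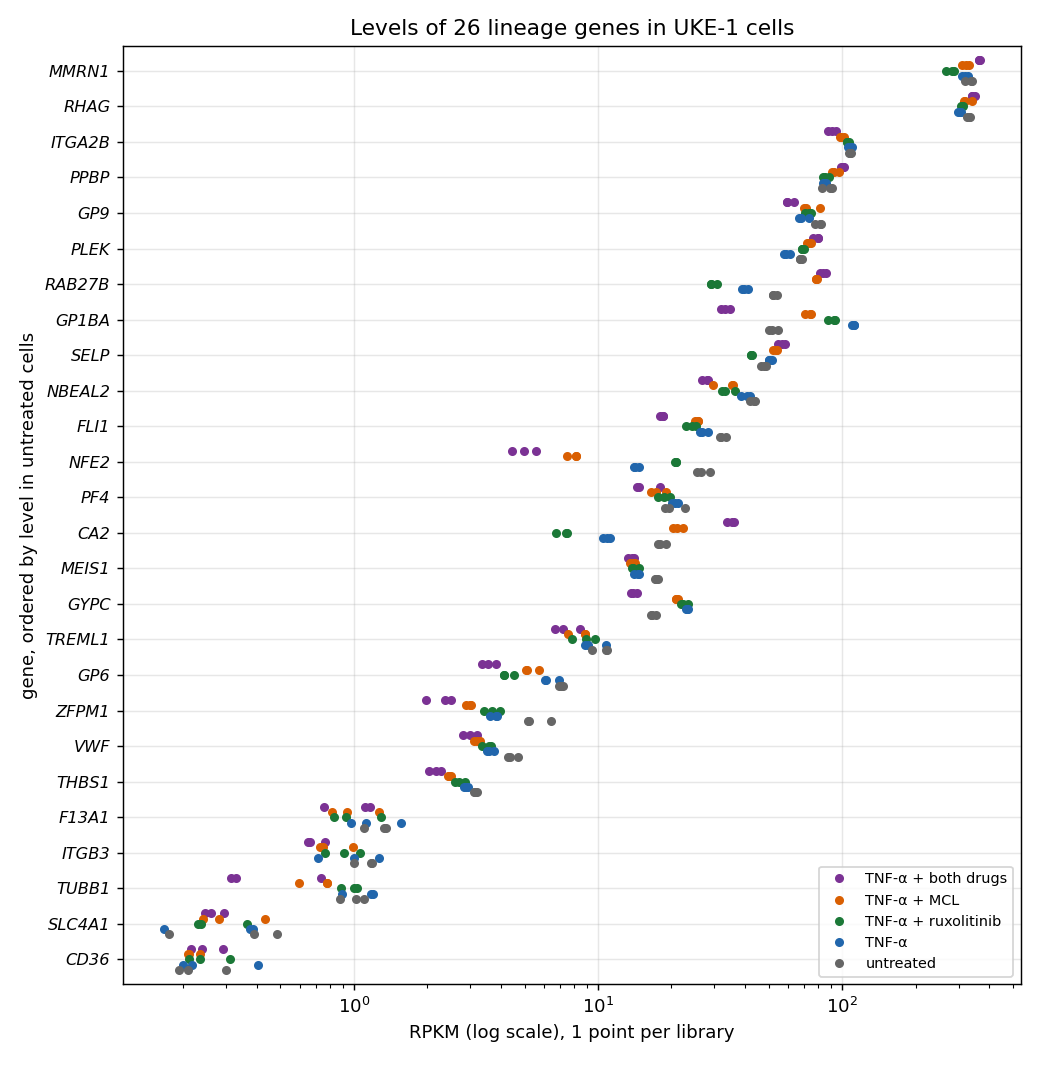
RPKM (log scale, horizontal axis) of the 26 kept genes, 1 point per library and 1 colour per group, ordered by the mean in untreated cells. MMRN1 and RHAG sit above all others in every group, and the points of GP1BA, NFE2, CA2 and RAB27B separate by group.

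With both drugs, most of the kept genes differed from TNF-α alone. The level of 7 of 26 genes rose, where 25.5% of all 16146 tested genes rose, and that of 15 fell, where 29.3% of all tested genes fell. The median log2 fold change of the 26 was -0.27, against -0.03 over all tested genes. Under TNF-α alone against untreated cells, 2 rose (14.1% of all tested genes) and 10 fell (12.5%), with a median of -0.126 against 0.005. MCL against TNF-α alone raised 5 (10.9%) and lowered 10 (15.1%), with a median of -0.16 against -0.02. Ruxolitinib against TNF-α alone raised 2 (5.15%) and lowered 8 (10.6%), with a median of -0.125 against -0.007. These drug comparisons share the 3 TNF-α libraries. The shares of all tested genes were not matched to the members for level, and smaller changes can pass at higher counts. In bulk RNA, fewer cells of a type and less RNA per cell cannot be told apart.

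**Figure D2:**
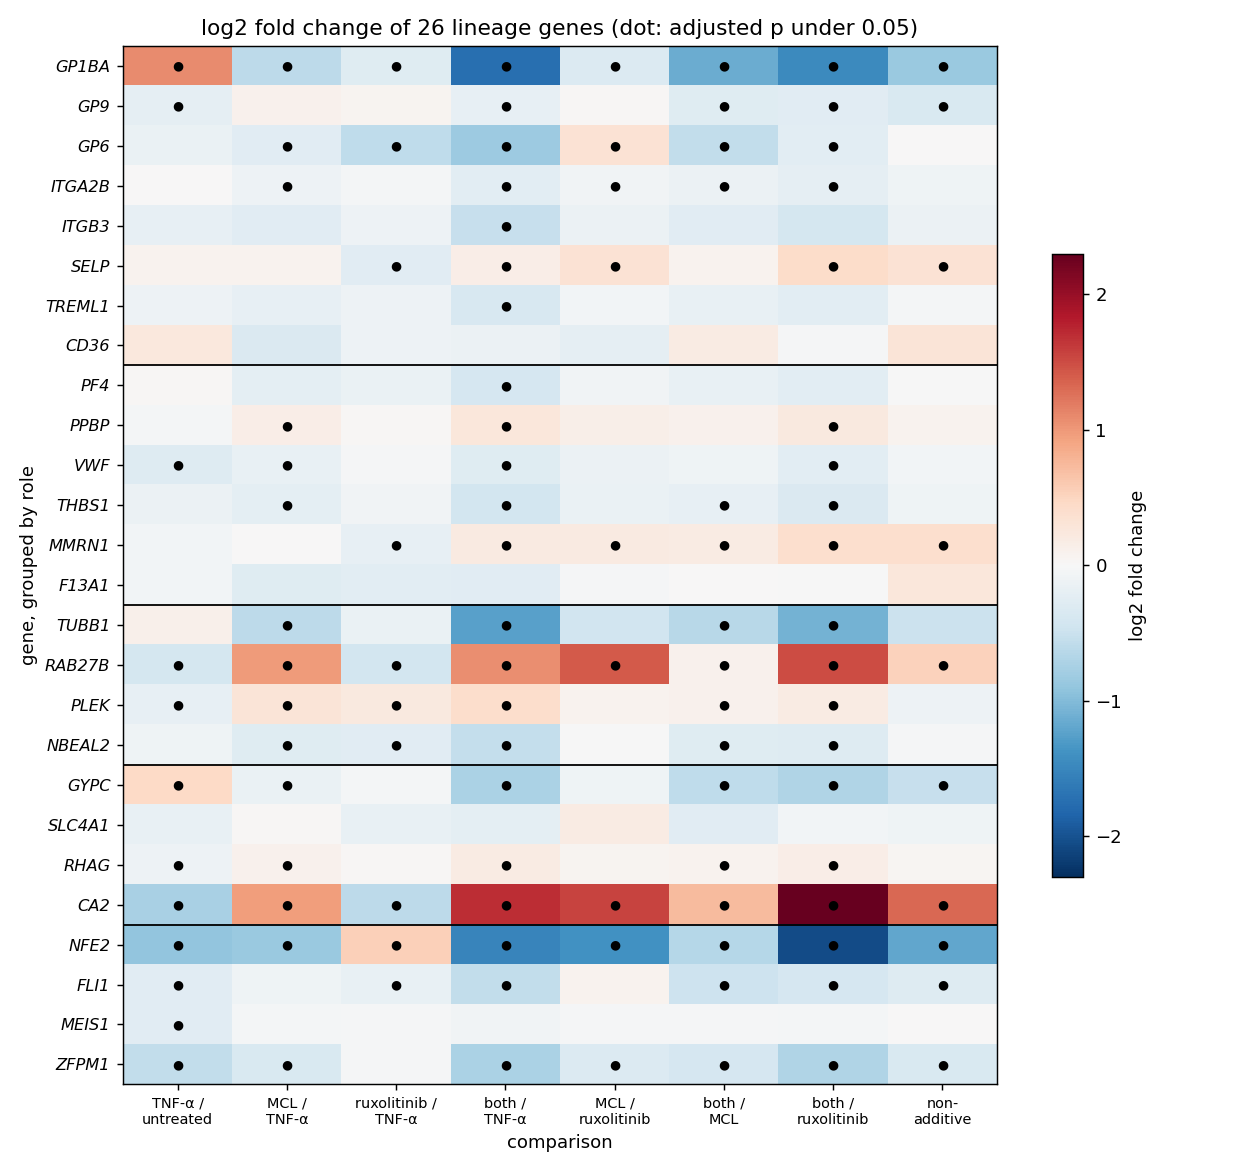
Log2 fold change (colour) of each kept gene (rows, grouped by role) in 8 comparisons (columns), with a dot where the adjusted p was under 0.05. The row of GP1BA turns from red under TNF-α to blue with the drugs, NFE2 is red only in the ruxolitinib column, and the darkest cells, CA2 at 2.29 and NFE2 at -2.06, stand in the column of both drugs against ruxolitinib.

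Of the 8 platelet surface receptors kept, 6 fell with both drugs (29.3% of all tested genes) and SELP alone rose (25.5%), with a median log2 fold change of -0.31. With libraries scaled by their totals 4 of the 8 were called lower, without GP9 and ITGB3. GP1BA (ENSG00000185245, chr17:4932297-4935030 in hg38), the chain of the platelet receptor that binds von Willebrand factor, changed most. GP1BA transcripts stood at 79.5, 83.2 and 86.5 CPM with both drugs, 185, 176 and 186 CPM with MCL, 234, 233 and 218 CPM with ruxolitinib, 275, 279.5 and 279.6 CPM with TNF-α alone and 137, 129 and 126 CPM in untreated cells. All 5 groups were apart, with TNF-α alone highest and both drugs lowest. TNF-α changed GP1BA by 1.09 ± 0.04 (SE, adjusted p = 2.01e-33) on the log2 scale against untreated cells. Against TNF-α alone the log2 fold change was -0.61 ± 0.04 (SE, adjusted p = 6.32e-21) with MCL, -0.29 ± 0.04 (SE, adjusted p = 1.14e-08) with ruxolitinib and -1.74 ± 0.04 (SE, adjusted p = 8.54e-44) with both, which is 3.35-fold lower. The libraries with both drugs also lay below all untreated libraries, a pair of groups for which no test was run.

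GP9, a partner of GP1BA in the same receptor complex, moved less, though the difference between the genes was not tested. It had 53, 56.4 and 52.7 CPM with both drugs, 63.2, 72.3 and 62.3 CPM with MCL, 64.9, 66.1 and 62.4 CPM with ruxolitinib, 60.4, 59.2 and 64.8 CPM with TNF-α alone and 72.7, 71.8 and 69 CPM in untreated cells. The combination libraries were the lowest of the 15, and GP9 changed by -0.19 ± 0.06 (SE, adjusted p = 0.00324) against TNF-α alone. That call was lost when libraries were scaled by their totals, at -0.11 (adjusted p = 0.0814). TNF-α alone changed GP9 by -0.21 ± 0.05 (SE, adjusted p = 0.00157).

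GP6, the platelet collagen receptor, had 10.4, 9.55 and 9.07 CPM with both drugs, 13.7, 15.5 and 13.9 CPM with MCL, 11.1, 12.2 and 11.1 CPM with ruxolitinib, 18.7, 16.5 and 16.5 CPM with TNF-α alone and 19.1, 19.5 and 18.6 CPM in untreated cells. All libraries given a drug lay below the TNF-α and untreated libraries. The log2 fold change against TNF-α alone was -0.59 ± 0.10 (SE, adjusted p = 6.63e-06) with ruxolitinib and -0.83 ± 0.10 (SE, adjusted p = 1.76e-10) with both drugs. With MCL it was -0.26 ± 0.10 (SE, adjusted p = 0.0404), a call lost in 10 of the alternatives. These include leaving out TNF-α replicate 1, 2 or 3 or MCL replicate 1 or 3, and the adjusted p went up to 0.221.

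Of the fibrinogen receptor chains, ITGA2B had 488, 522 and 503 CPM with both drugs and 601, 587 and 612 CPM with TNF-α alone, which did not overlap. ITGA2B changed by -0.25 ± 0.03 (SE, adjusted p = 4.82e-10) with both drugs. MCL alone changed ITGA2B by -0.12 ± 0.03 and ruxolitinib alone did not move it past the threshold. ITGB3 had 3.36, 2.84 and 2.9 CPM with both drugs and 5.59, 3.12 and 4.41 CPM with TNF-α alone, and the groups overlapped. Its log2 change, -0.52 ± 0.20 (SE, adjusted p = 0.0231), became -0.31 (adjusted p = 0.259) without TNF-α replicate 1, and the call was also lost without TNF-α replicate 3 and without combination replicate 2 or 3. About 51.6% of the ITGB3 exon bases also belong to the overlapping gene AC068234.1, which had 0 counts.

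SELP encodes P-selectin, the granule adhesion molecule that activated platelets and endothelial cells expose to bind leukocytes. It had 198, 203 and 189.9 CPM with both drugs, 189, 188 and 182 CPM with MCL, 148, 148 and 147 CPM with ruxolitinib, 175, 175 and 180.1 CPM with TNF-α alone and 168, 171 and 162 CPM in untreated cells. Ruxolitinib alone gave the lowest libraries and both drugs the highest. The log2 fold change against TNF-α alone was -0.26 ± 0.04 (SE, adjusted p = 1.44e-07) with ruxolitinib and 0.16 ± 0.04 (SE, adjusted p = 0.000219) with both drugs. TREML1, a receptor stored in α-granules, changed by -0.37 ± 0.11 (SE, adjusted p = 0.00358) on the log2 scale with both drugs, with means of 11 ± 1.35 CPM there and 14.2 ± 1.52 CPM under TNF-α alone (SD, n = 3 each). Without TNF-α replicate 2 it was -0.27 (adjusted p = 0.0639). CD36, the scavenger and thrombospondin receptor, passed in no comparison, with levels of 2.08 to 4.39 CPM over the 15 libraries.

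The granule and secreted proteins split in both directions. With both drugs 2 of the 6 rose (25.5% of all tested genes), 3 fell (29.3%) and F13A1 did not pass. MMRN1 had 2001, 2012 and 2017 CPM with both drugs, 1780.0, 1820.0 and 1704 CPM with MCL, 1548, 1465 and 1584 CPM with ruxolitinib, 1752, 1800.0 and 1703 CPM with TNF-α alone and 1863, 1758 and 1869 CPM in untreated cells. The ruxolitinib libraries lay below all others and the combination libraries above all others. The log2 fold change against TNF-α alone was -0.19 ± 0.03 (SE, adjusted p = 2.22e-06) with ruxolitinib, 0.01 ± 0.03 with MCL, which did not pass, and 0.20 ± 0.03 (SE, adjusted p = 1.58e-07) with both.

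The chemokine genes PPBP and PF4 are neighbours on chromosome 4 and went opposite ways with both drugs. PPBP had 72.2, 72.9 and 70.8 CPM with both drugs and 59.6, 60.4 and 61.2 CPM with TNF-α alone, and changed by 0.25 ± 0.05 (SE, adjusted p = 1.77e-05) on the log2 scale. PF4 had 8.69, 10.9 and 8.91 CPM with both drugs and 12.5, 12.1 and 12.9 CPM with TNF-α alone, and changed by -0.40 ± 0.11 (SE, adjusted p = 0.00253). Neither chemokine overlapped between these groups.

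VWF, the adhesive protein that GP1BA binds, had 29.2, 30.9 and 33.1 CPM with both drugs, 33.1, 34.2 and 32.3 CPM with MCL, 37, 34.9 and 38 CPM with ruxolitinib, 37, 39 and 36.5 CPM with TNF-α alone and 44.6, 48.8 and 45.4 CPM in untreated cells. Untreated libraries were the highest. VWF changed by -0.30 ± 0.06 (SE, adjusted p = 9.35e-05) under TNF-α, and both drugs gave -0.27 ± 0.07 (SE, adjusted p = 0.000327) against TNF-α alone. THBS1, the granule protein thrombospondin 1, changed by -0.41 ± 0.08 (SE, adjusted p = 4.06e-06) with both drugs. F13A1, the A chain of coagulation factor XIII, passed nowhere, at 3.53 to 7.3 CPM over the libraries. VWF, THBS1, MMRN1 and SELP are also made by endothelial cells. The 4 endothelial markers summed to 417 to 423 CPM with both drugs, 415 to 421 CPM with MCL, 425 to 448 CPM with ruxolitinib, 464 to 489 CPM with TNF-α alone and 527 to 544 CPM in untreated cells. Their part in these results was not tested.

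In the cytoskeleton and granule machinery, RAB27B and PLEK rose (25.5% of all tested genes) and TUBB1 and NBEAL2 fell (29.3%) with both drugs. RAB27B (ENSG00000041353, chr18:54717860-54895516 in hg38) encodes a small GTPase that carries platelet granules to the membrane. RAB27B transcripts stood at 636, 605 and 622 CPM with both drugs, 580.4, 582 and 584 CPM with MCL, 216, 215 and 228 CPM with ruxolitinib, 294, 306 and 288 CPM with TNF-α alone and 386, 387 and 403 CPM in untreated cells. Every library given MCL lay above every untreated library, and the ruxolitinib libraries lay below the TNF-α libraries. The log2 fold change against TNF-α alone was 0.98 ± 0.03 (SE, adjusted p = 9.35e-34) with MCL, -0.43 ± 0.03 (SE, adjusted p = 6.28e-16) with ruxolitinib and 1.07 ± 0.03 (SE, adjusted p = 6.51e-37) with both. TNF-α alone gave -0.41 ± 0.03 (SE, adjusted p = 5.25e-16) against untreated cells.

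PLEK, pleckstrin, a major protein kinase C substrate of platelets, had 251, 263 and 264 CPM with both drugs, 243, 238 and 246 CPM with MCL, 226, 231 and 227 CPM with ruxolitinib, 194, 192 and 202 CPM with TNF-α alone and 222, 224 and 227 CPM in untreated cells. TNF-α libraries were the lowest, and each drug raised the level. PLEK changed by -0.19 ± 0.04 under TNF-α, and 0.30 ± 0.04 with MCL, 0.22 ± 0.04 with ruxolitinib and 0.40 ± 0.03 with both against TNF-α alone, with adjusted p-values of 1.01e-05, 1.66e-10, 2.22e-06 and 1.36e-15. NBEAL2, which is needed to form α-granules, had 278, 274 and 261 CPM with both drugs and 410.1, 401 and 379 CPM with TNF-α alone, and the groups did not overlap. Its log2 fold change was -0.55 ± 0.07 (SE, adjusted p = 1.01e-05). TUBB1, the β-tubulin of the platelet's marginal band, was low, with 1.1, 1.15 and 2.56 CPM with both drugs and 4.21, 3.12 and 4.1 CPM with TNF-α alone, and changed by -1.24 ± 0.24 (SE, adjusted p = 1.43e-05) on the log2 scale. Exons of ATP5F1E, on the opposite strand with a mean of 957 counts against 49.1 for TUBB1, cover 34.0% of the TUBB1 exon bases, and strand use in counting is not given, so the TUBB1 values are uncertain.

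Of the 4 kept red cell genes, CA2 and RHAG rose (25.5% of all tested genes) and GYPC fell (29.3%) with both drugs, and SLC4A1 did not pass. CA2 (ENSG00000104267), the carbonic anhydrase of red cells that is also expressed in many other cell types, had 71.8, 75.4 and 76.6 CPM with both drugs, 44.8, 47.5 and 43 CPM with MCL, 15.9, 15.7 and 14.3 CPM with ruxolitinib, 23.2, 23.8 and 22.2 CPM with TNF-α alone and 40.5, 38 and 37.2 CPM in untreated cells. All groups were apart, with both drugs highest and ruxolitinib alone lowest. Against TNF-α alone the log2 fold change was 0.96 ± 0.07 (SE, adjusted p = 5.59e-19) with MCL, -0.59 ± 0.08 (SE, adjusted p = 9.07e-09) with ruxolitinib and 1.69 ± 0.06 (SE, adjusted p = 9.2e-33) with both, which is 3.23-fold higher. TNF-α alone gave -0.74 ± 0.07 (SE, adjusted p = 2.52e-14) against untreated cells.

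GYPC, glycophorin C, which anchors the red cell membrane to its skeleton, had 52.1, 55.2 and 52.9 CPM with both drugs, 81.3, 79.5 and 79.2 CPM with MCL, 84.9, 89.3 and 83.3 CPM with ruxolitinib, 87.6, 89.5 and 88.3 CPM with TNF-α alone and 62.7, 63.3 and 66 CPM in untreated cells. TNF-α raised it by 0.47 ± 0.05 (SE, adjusted p = 1.24e-12) on the log2 scale, and both drugs brought it below the untreated range, with -0.73 ± 0.05 (SE, adjusted p = 1.18e-20) against TNF-α alone. RHAG, one of the most abundant members, had 915, 917 and 946 CPM with both drugs, 799.6, 817 and 828 CPM with TNF-α alone and 898, 888 and 871 CPM in untreated cells. Its changes were small, -0.12 ± 0.03 (SE, adjusted p = 0.00185) under TNF-α and 0.18 ± 0.03 (SE, adjusted p = 6.94e-07) with both drugs against TNF-α alone. SLC4A1 was measured at 0.855 to 2.49 CPM over the libraries, with a largest log2 difference from TNF-α alone of -0.23 ± 0.33, with both drugs.

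All 4 transcription factors fell under TNF-α (12.5% of all tested genes), and 3 of the 4 fell further with both drugs (29.3%). NFE2 (ENSG00000123405, chr12:54292111-54301121 in hg38), the factor required for platelet release, had 11, 12.2 and 13.8 CPM with both drugs, 20.1, 18.5 and 20.1 CPM with MCL, 51.2, 51.5 and 51.7 CPM with ruxolitinib, 34.6, 36.5 and 35.1 CPM with TNF-α alone and 65.2, 70.8 and 62.9 CPM in untreated cells. All 5 groups were apart, with the combination lowest and untreated cells highest. TNF-α changed it by -0.91 ± 0.06 (SE, adjusted p = 3.07e-19). Ruxolitinib was the only drug treatment with a level above TNF-α alone, 0.54 ± 0.06 (SE, adjusted p = 7.91e-10), while MCL gave -0.85 ± 0.07 (SE, adjusted p = 3.09e-15) and both drugs -1.52 ± 0.08 (SE, adjusted p = 4.88e-26), which is 2.86-fold lower than TNF-α alone.

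FLI1, an ETS factor of megakaryocytes, had 147, 151 and 151 CPM with both drugs, 203, 209 and 209.8 CPM with MCL, 198, 206 and 188 CPM with ruxolitinib, 217, 214 and 232 CPM with TNF-α alone and 258, 272 and 260.2 CPM in untreated cells. FLI1 changed by -0.25 ± 0.04 (SE, adjusted p = 6.8e-08) under TNF-α, -0.16 ± 0.04 (SE, adjusted p = 0.000788) with ruxolitinib and -0.56 ± 0.04 (SE, adjusted p = 4.08e-20) with both drugs against TNF-α alone, and MCL alone did not pass at -0.09 ± 0.04. ZFPM1, known as FOG1, the cofactor of GATA1, had 15.3, 14.4 and 12.1 CPM with both drugs, 17.5, 18.4 and 18.5 CPM with MCL, 22.6, 24.2 and 20.8 CPM with ruxolitinib, 23.3, 22.2 and 23.7 CPM with TNF-α alone and 39, 31.8 and 31.7 CPM in untreated cells. It fell under TNF-α by 0.57 and then with MCL (-0.35 ± 0.09) and with both drugs (-0.73 ± 0.09). MEIS1, a homeobox factor of stem cells and megakaryocytes, differed in 1 comparison, TNF-α against untreated cells, at -0.26 ± 0.04 (SE, adjusted p = 5.12e-08). With both drugs MEIS1 was at -0.08 ± 0.04 against TNF-α alone (adjusted p = 0.0693).

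**Figure D3:**
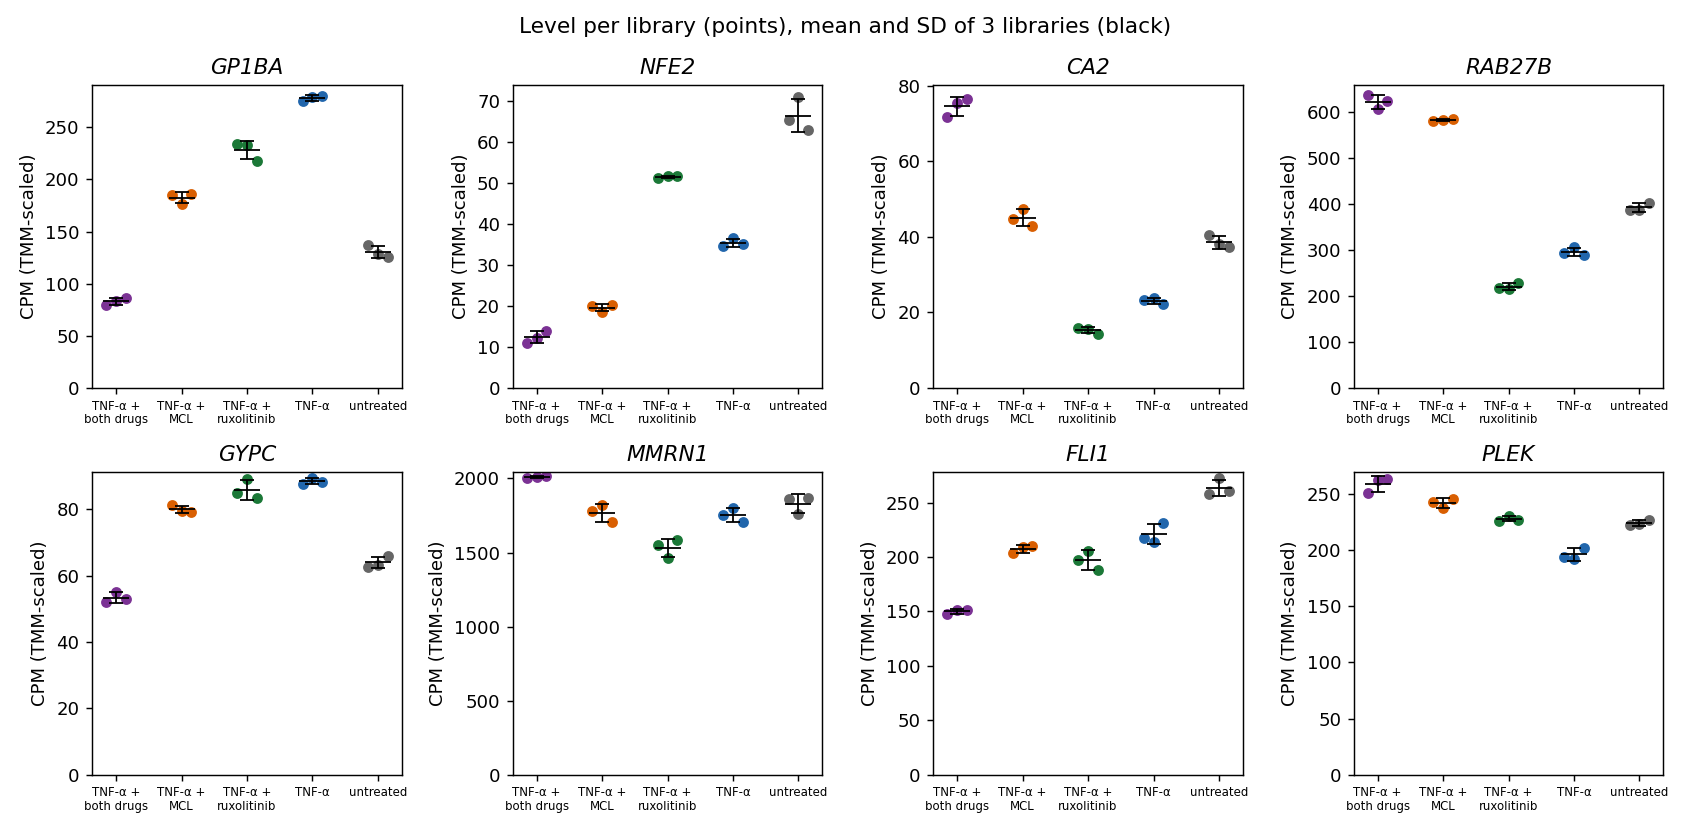
CPM (TMM-scaled, vertical axis from 0) of 8 members in the 5 groups, with a point per library and the mean and SD of 3 libraries in black. For GP1BA and NFE2 the groups with both drugs are the lowest, and for CA2, RAB27B, MMRN1 and PLEK they are the highest.

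The MCL calls were the least settled. Of the 15 genes called with MCL against TNF-α alone, GP6, VWF, TUBB1, THBS1, GYPC, NBEAL2, PPBP and RHAG were lost in at least 1 alternative and 7 were kept in all. The 10 genes called lower became 6 without TNF-α replicate 2 or 3 or MCL replicate 2, 5 without MCL replicate 3, and 7 without TNF-α replicate 1 or MCL replicate 1. The 5 called higher became 3 without MCL replicate 2. GP1BA, NFE2, ZFPM1 and ITGA2B among those that fell, and RAB27B, CA2 and PLEK among those that rose, were called in every alternative.

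Set against each other, MCL gave higher levels than ruxolitinib for 5 of 26 genes (14.3% of all tested genes) and lower levels for 4 (13.1%), with a median log2 fold change of -0.03 against -0.01. CA2 was higher with MCL by 1.56 ± 0.07 (SE, adjusted p = 1.31e-27), RAB27B by 1.41 ± 0.03 (SE, adjusted p = 7.77e-42), SELP by 0.33 ± 0.04, GP6 by 0.33 ± 0.10 and MMRN1 by 0.21 ± 0.03. NFE2 was lower with MCL, at -1.39 ± 0.07 (SE, adjusted p = 1.48e-25), as were GP1BA at -0.32 ± 0.04, ZFPM1 at -0.31 ± 0.09 and ITGA2B at -0.09 ± 0.03. The ITGA2B call was lost in 8 alternatives, which included leaving out MCL replicate 1 or 2 or any 1 ruxolitinib library, with an adjusted p of up to 0.167. The GP6 call was lost without MCL replicate 2, at 0.27 (adjusted p = 0.0842). For CA2, RAB27B and NFE2 the drugs lay on opposite sides of TNF-α alone.

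Adding MCL to ruxolitinib raised 7 genes (24.8% of all tested genes) and lowered 12 (26.8%), and adding ruxolitinib to MCL raised 5 (19.6%) and lowered 11 (22.0%). The last 5 became 3 without MCL replicate 1. CA2 had 74.6 ± 2.52 CPM with both drugs and 15.3 ± 0.853 CPM with ruxolitinib, and NFE2 had 12.4 ± 1.4 CPM with both drugs and 51.5 ± 0.246 CPM with ruxolitinib (SD, n = 3 each). On the log2 scale CA2 differed by 2.29 ± 0.07 (SE, adjusted p = 3.08e-38) and NFE2 by -2.06 ± 0.07 (SE, adjusted p = 1.39e-33). Although ruxolitinib alone lowered CA2 and RAB27B against TNF-α alone, the combination lay above MCL alone for both, by 0.73 ± 0.06 (SE, adjusted p = 8.96e-17) and 0.09 ± 0.03 (SE, adjusted p = 0.0157). For RAB27B that call was lost without MCL replicate 1 (adjusted p = 0.0514) and without combination replicate 1 (0.08, adjusted p = 0.0932). NFE2, which ruxolitinib alone raised, was lower with both drugs than with MCL alone, at -0.66 ± 0.08 (SE, adjusted p = 1.05e-09).

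The effect of MCL differed with ruxolitinib present for 10 of the 26 genes. The non-additive effect, the MCL effect (log2) measured beside ruxolitinib less the MCL effect measured without it, was above 0 for 4 genes (12.2% of all tested genes) and below 0 for 6 (12.8%). It was 1.32 ± 0.10 (SE, adjusted p = 8.28e-18) for CA2, 0.52 ± 0.05 (SE, adjusted p = 4.94e-14) for RAB27B, 0.38 ± 0.04 (SE, adjusted p = 3.15e-10) for MMRN1 and 0.34 ± 0.05 (SE, adjusted p = 4.26e-07) for SELP. It was -1.20 ± 0.11 (SE, adjusted p = 1.62e-14) for NFE2, -0.85 ± 0.06 (SE, adjusted p = 7.79e-20) for GP1BA, -0.54 ± 0.07 (SE, adjusted p = 1.93e-09) for GYPC, -0.36 ± 0.08 (SE, adjusted p = 0.000267) for GP9 and -0.30 ± 0.05 (SE, adjusted p = 8.2e-06) for FLI1. For ZFPM1 it was -0.35 ± 0.13 (SE, adjusted p = 0.0388), and the call was lost without any 1 of 7 libraries, TNF-α replicates 1 and 2, MCL replicates 2 and 3, ruxolitinib replicates 1 and 2 and combination replicate 3. TUBB1, not called at -0.49 ± 0.34 (adjusted p = 0.325), was called without combination replicate 3, at -1.001 (adjusted p = 0.031).

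**Figure D4:**
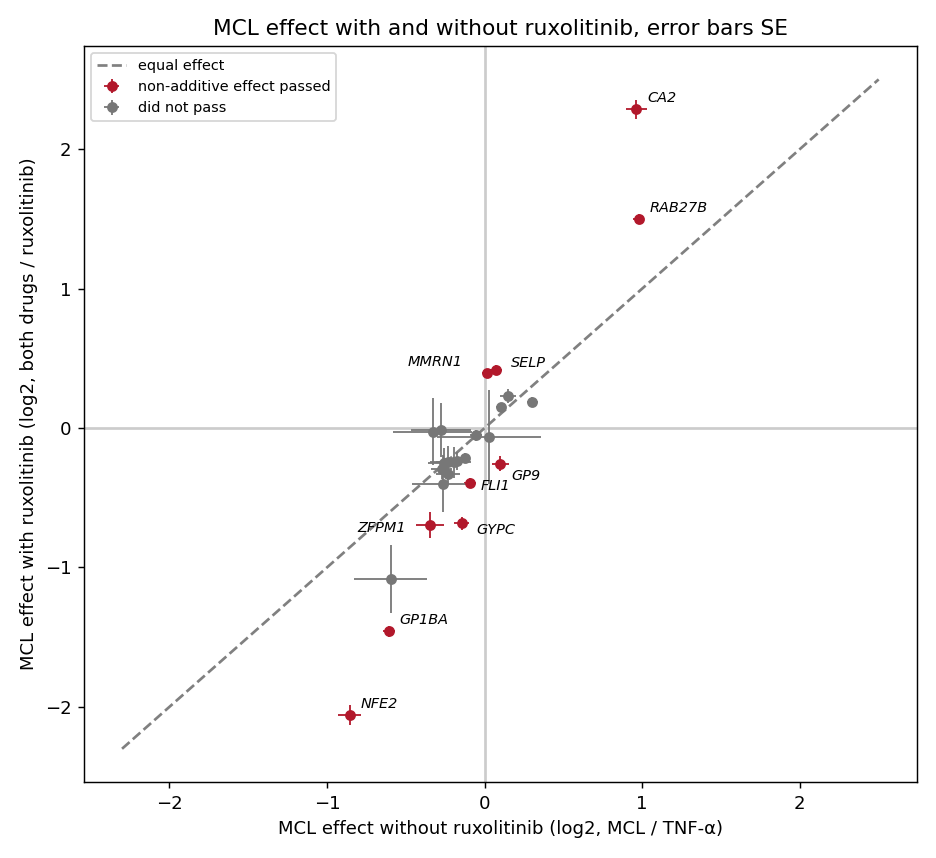
MCL effect (log2) beside ruxolitinib (vertical) against the MCL effect without ruxolitinib (horizontal) for the 26 kept genes, with SE bars; the dashed line marks equal effects. CA2 and RAB27B lie above the line at the upper right, NFE2 and GP1BA below it at the lower left, and red points mark the 10 genes whose effects differed at an adjusted p under 0.05.

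Other genes of these lineages, from lists of textbook members chosen with earlier results of these data known, were counted in the same fit. Of 35 tested platelet and megakaryocyte genes outside the list, 3 rose (25.5% of all tested genes) and 24 fell (29.3%) with both drugs against TNF-α alone, with a median log2 fold change of -0.40 against -0.03 over all tested genes. With library totals 5 were called higher and 23 lower. Those that fell included PTGS1, the cyclooxygenase of platelets, at -0.66 ± 0.03 (SE, adjusted p = 1.64e-26) and the thromboxane receptor gene TBXA2R at -1.42 ± 0.07 (SE, adjusted p = 2.45e-26). MCL alone raised 2 of the 35 (10.9% of all tested genes) and lowered 16 (15.1%). Ruxolitinib alone raised 0 (5.15%) and lowered 10 (10.6%), and TNF-α raised 9 (14.1%) and lowered 12 (12.5%).

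Of 21 tested regulators of both lineages, 4 rose (25.5% of all tested genes) and 12 fell (29.3%) with both drugs, with a median of -0.26. Under TNF-α against untreated cells, 5 of the 21 rose (14.1% of all tested genes) and 7 fell (12.5%), with a median of -0.063. They did not all fall there, unlike the 4 transcription factors of the list. GATA2, the progenitor GATA factor, had 128 ± 8.57 CPM with both drugs and 551 ± 3.4 CPM with TNF-α alone (SD, n = 3 each), and changed by -2.10 ± 0.04 (SE, adjusted p = 1.61e-50) on the log2 scale. MAFG, the small Maf protein that pairs with NFE2, had 400 ± 15.9 CPM with both drugs and 86.2 ± 3.64 CPM with TNF-α alone, and changed by 2.21 ± 0.04 (SE, adjusted p = 1.28e-49). LYL1, a helix-loop-helix factor, gave -1.77 ± 0.04 (SE, adjusted p = 1.57e-43). GATA1 itself had 8.84 ± 0.684 CPM with both drugs, 15.03 ± 0.978 CPM with TNF-α alone and 17.7 ± 0.194 CPM in untreated cells. KLF1, the erythroid Krüppel-like factor, had 34 counts over the 15 libraries.

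Of 18 tested genes of haem synthesis and iron uptake, 7 rose (25.5% of all tested genes) and 6 fell (29.3%) with both drugs, with a median of 0.05. The 6 that fell are 33.3% of the 18, near the share of all tested genes. TFRC, the transferrin receptor, gave -0.71 ± 0.03 (SE, adjusted p = 1.27e-28). Of 21 other tested erythroid genes, 6 rose and 8 fell with both drugs, or 28.6% and 38.1% beside 25.5% and 29.3% of all tested genes. With library totals 6 were called higher and 4 lower. The water channel gene AQP1 had 6.29 ± 0.188 CPM with both drugs and 32.8 ± 1.79 CPM with TNF-α alone, and changed by -2.38 ± 0.09 (SE, adjusted p = 6.06e-32).

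Promoter sequence was set beside the response for the members that rose or fell with both drugs. RefSeq windows (GRCh38.p14) matched 18 of the 26 kept genes, and the 150 bases before each start were searched on both strands. The GATA motif (AGATAA or TGATAA) was in a window of 4 of the 18, against 10.4% of 27305 genes. Of the genes with a window, 3 of the 6 that rose with both drugs held it (RAB27B, RHAG and SELP), and 0 of the 9 that fell did. The RHAG match lies before its RefSeq start but inside the gene as annotated for counting, which begins at chr6:49636884. The related forms AGATAG and TGATAG were not searched. Among the genes that fell, the ITGA2B window holds TGATAG and the GYPC window the reverse complement of AGATAG. These counts therefore do not show that the genes that fell lack GATA sites. The ETS motif CCGGAA was found for 1 of the 18 (13.4% of all genes), the NF-E2 and AP-1 motif TGANTCA for 2 (5.16%), the STAT motif TTCNNNGAA for 0 (4.58%) and the antioxidant response motif TGACNNNGC for 3 (8.94%). These motifs were searched only in the forms given, so the counts do not show that the other members lack such sites. No test was made, since the genes were grouped by their response and several have more than 1 window. A match describes letters, not a bound site. The windows of SELP and RAB27B, which rose, and of ITGA2B, which fell, are given 5′ to 3′, with GATA matches in capitals. Only bases before the gene as annotated for counting are shown. They lie on chr1:169630194-169630274 (minus strand) for SELP and chr18:54717707-54717856 (plus strand) for RAB27B. For ITGA2B they lie on chr17:44389650-44389799 (minus strand). That window ends before the annotated start of ITGA2B at chr17:44389505, and the bases between were neither searched nor shown.
SELP: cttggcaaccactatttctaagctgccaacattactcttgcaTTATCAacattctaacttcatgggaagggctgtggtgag
RAB27B: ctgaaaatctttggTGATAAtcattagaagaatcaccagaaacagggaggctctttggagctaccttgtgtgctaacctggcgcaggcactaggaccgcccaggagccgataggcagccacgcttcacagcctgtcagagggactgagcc
ITGA2B: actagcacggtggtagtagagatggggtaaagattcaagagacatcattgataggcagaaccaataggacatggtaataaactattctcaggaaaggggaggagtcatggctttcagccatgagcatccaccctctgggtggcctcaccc
The TGATAA letters of RAB27B lie near the 5′ end of its window, and those of SELP read TTATCA on the strand shown. The ITGA2B window holds none of the 5 motifs as searched, but it does hold TGATAG, which was not searched and is not in capitals.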

How the data were processed

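The authors deposited raw counts (whole reads for each gene, not normalized) for 58735 genes in 15 libraries. Per the submitters' processing notes, the tools were HISAT2 2.0.5, DESeq2 1.16.1 and featureCounts 1.5.0-p3, and the listed builds mm10 and hg38, without a role. Gene starts, ends, symbols and the deposited exon lengths matched GENCODE 29 for 58735 of 58735 genes. Control columns were read as untreated cells. After edgeR's filterByExpr (minimum count 10), 16146 genes were fitted in edgeR 4.0.16 under R 4.3.3. The model had TMM scaling and a term for each group, was fitted to the 15 libraries together and left 10 residual degrees of freedom. Tests were robust quasi-likelihood F-tests, adjusted by the Benjamini-Hochberg method across the 16146 genes, with a threshold of 0.05. SEs were derived as the absolute log2 change over the root of F. CPM are TMM-scaled, and RPKM divides them by the deposited exon length. There were 7 comparisons between groups and the non-additive effect. Every kept gene was named by rule, and other lists gave the passing genes with the smallest p. The members and lists were chosen with earlier results of these data known. Alternatives were DESeq2 scaling, library totals, no filter, DESeq2 1.42.0, only the groups compared, a replicate term and leaving out each library. The fit was tested on simulated data. Limits given for a count of 0 cover counting error only.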

Additional observations from a re-analysis of the deposited data

Results flagged for a closer look

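For 10 genes the effect of MCL differed with and without ruxolitinib by a test of the difference itself (edgeR, non-additive effect, n = 3 libraries per group). The log2 effect of MCL was 2.29 with ruxolitinib and 0.96 without it for CA2, a difference of 1.32. For RAB27B it was 1.5 and 0.98, a difference of 0.52. MMRN1, at 0.39 with ruxolitinib and 0.01 without it (difference 0.38), and SELP, at 0.41 and 0.07 (difference 0.34), also lay above 0. For NFE2 the effect was -2.06 with ruxolitinib and -0.85 without it, a difference of -1.20. For GP1BA it was -1.46 and -0.61, a difference of -0.85, and for GYPC -0.68 and -0.14, a difference of -0.54. GP9 had -0.25 with ruxolitinib and 0.10 without it, a difference of -0.36. FLI1 had -0.40 and -0.09, a difference of -0.30. ZFPM1 had -0.69 and -0.35, a difference of -0.35 that was not called in several alternatives.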

How the results depend on the processing

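Over all 8 comparisons, 92 of 113 called values of the 26 genes were called in every alternative run and 21 were not, and 15 of 95 values that were not called were called in at least 1. None reversed in direction. The 10 genes called lower with MCL became 6 under library totals and 5 with no filter, and 5 to 7 when a library was left out. The 5 called higher with MCL became 3 to 5 when a library was left out. The 5 higher with both drugs against MCL became 3 with no filter and 3 to 4 with a library left out, and the 5 higher with MCL against ruxolitinib became 8 under library totals. All other counts of members stayed within 1.5 times. The cause was not tested. Scaling by library totals shifted the median log2 fold change of all genes by up to 0.076, and moved the share of calls that were higher to 42.4% from 53.0% under TNF-α, to 53.7% from 41.8% with MCL, to 45.4% from 32.8% with ruxolitinib and to 56.6% from 46.5% with both drugs. No pairing of libraries by replicate number was seen. Over all tested genes, deviations of same-numbered libraries correlated at -0.048 to 0.048, and those of differently numbered libraries at -0.071 to 0.072. Of the 15 libraries, 7 were closest to their own number. A pairing that touches few genes could be missed by these values. With a replicate block the count of members lower with both drugs against ruxolitinib was 13 instead of 12, with TREML1 added at a log2 fold change of -0.25 (adjusted p = 0.0441), and no other call of a member changed. Members at low counts (CD36, F13A1, ITGB3, TUBB1 and SLC4A1) have SEs of up to 0.34 on the log2 scale in comparisons of 2 groups. An SE is not a detection limit, so differences larger than their SE could also go uncalled for these members at this depth.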

Other observations

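The response of 14 lineage regulators to the combination also departed from the sum of the single drugs. Of 21 tested regulators, 3 had a non-additive effect above 0 (12.2% of all tested genes) and 11 below 0 (12.8%), with a median of -0.20 against 0.01 over all tested genes. The lowest p-values among these belonged to GATA2 at -1.39 ± 0.05 (SE, adjusted p = 1.79e-32), LYL1 at -1.06 ± 0.06 (adjusted p = 1.08e-23) and CBFA2T3, a GATA1 and TAL1 cofactor, at -1.16 ± 0.07 (adjusted p = 8.53e-22). Of 35 other platelet and megakaryocyte genes, 4 were above 0 and 13 below 0 (11.4% and 37.1%, beside 12.2% and 12.8% of all tested genes). Of 18 haem and iron genes, 0 were above 0 (12.2% of all tested genes) and 5 below 0 (12.8%), with TFRC at -0.55 ± 0.04 (adjusted p = 9.83e-16). Of 21 other erythroid genes, 0 were above 0 (12.2%) and 6 below 0 (12.8%), with AQP1 at -1.69 ± 0.12 (adjusted p = 1.12e-17). These lists were chosen with earlier results of these data known.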
